A study of Mus musculus with 8 samples.

Results

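Sphincter 1 is the muscle type of the mouse iris with the highest level of Chrm3, the gene of the muscarinic M3 acetylcholine receptor, and its response to pilocarpine, a muscarinic agonist that constricts the pupil, was measured in single nuclei. The nuclei compared were those that the authors' deposited annotation assigned to sphincter muscle 1 in the constricted and untreated libraries. There were 776 of them, 544 untreated and 232 constricted, among 23330 nuclei of every type in those 6 libraries and 34357 nuclei in the 8 libraries of the series. Each library was treated as 1 sample: the unique molecular identifiers (UMIs, counted transcripts) of its sphincter 1 nuclei were summed gene by gene, and all genes were considered.

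The sphincter is a ring of smooth muscle at the pupil margin that narrows the pupil under parasympathetic control. Acetylcholine acts there mainly through M3 receptors, which couple to the G protein Gq. Gq activates phospholipase C, which makes inositol trisphosphate and diacylglycerol, and the calcium that inositol trisphosphate releases from internal stores activates myosin light chain kinase and contraction. Repeated stimulation of such receptors is also known, in other cells, to engage desensitization by RGS proteins, receptor kinases and arrestins, and to induce immediate early genes.

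The irises came from female wild-type albino mice of 6 to 8 weeks, and each library was a pool of irises from several animals, so that the spread between libraries holds the spread between pools and between preparations. The 3 constricted pools came from eyes given repeated pilocarpine drops with the animals kept in light. The 2 dilated pools came from eyes given phenylephrine and cyclopentolate with the animals kept in the dark, and the 3 untreated pools from eyes without drops. The drug and the handling for drops differ together between the constricted and the untreated group and cannot be told apart. The lighting of the untreated animals is not given in the sources used here, so a difference in lighting cannot be told apart from these either. The constricted state was that of the whole eye. The study used several processing batches, and which library belonged to which batch is not given in the sources used here.

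The untreated libraries held 50, 184 and 310 sphincter 1 nuclei in replicates 1, 2 and 3, and the constricted libraries held 103, 34 and 95. These nuclei carried 186010 to 1107793 UMIs in the untreated libraries and 165217 to 303837 UMIs in the constricted libraries. Constricted replicate 2 had the fewest nuclei and the highest median depth, 4634 UMIs per nucleus against 2882 to 3815 in the other 5 libraries compared. The defining markers of sphincter 1 (Chrm3, Syt1, Ttn, Ctnna3, Rbfox3, Nptx2, Ckm and Mybpc1) were detected in every library, with a summed level of 13676 to 15499 counts per 1000000 UMIs (CPM) in untreated and 12684 to 18703 CPM in constricted sphincter 1. The smooth muscle markers summed to 9792 to 11628 CPM and 9774 to 12099 CPM, respectively. Summed markers of stroma 1, leukocytes, endothelium and Schwann cells were at 66.8 CPM or less in each of the 6 libraries. Those of stroma 2 reached 198.9 to 332 CPM in untreated and 182 to 329 CPM in constricted libraries. Markers of iris pigment epithelium summed to 661 to 737 CPM and 611 to 777 CPM, respectively. Those of ciliary body epithelium summed to 53.8 to 110 CPM and 82.9 to 204 CPM. Dilator and ciliary body markers are given below. Of 34152 distinct cell barcodes in the 8 libraries, 195 occurred in more than 1 library, and 3 of 1008 did so within sphincter 1.

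Sphincter 1 made up 3.38%, 2.88% and 4.77% of the nuclei in the untreated libraries and 2.43%, 2.67% and 2.75% in the constricted libraries. These shares of all nuclei did not overlap, with means of 3.68% ± 0.98 (SD, n = 3) and 2.62% ± 0.16 (SD, n = 3). The two-sided exact permutation p was 0.1, the smallest that 3 libraries against 3 can give (adjusted p = 0.3 over 3 library measures). Of iris nuclei only, without ciliary body and its epithelium, they were 3.81%, 3.03% and 4.95% untreated and 2.62%, 3.05% and 2.83% constricted. Those shares overlapped (exact permutation p = 0.2). The median number of UMIs per nucleus was 3456 ± 327 (SD, n = 3) in untreated and 3480 ± 999 (SD, n = 3) in constricted libraries, with an exact permutation p of 1. The mitochondrial share was low in both groups, with a median of 0.036% ± 0.0063 (SD, n = 3) and 0.041% ± 0.022 (SD, n = 3) of UMIs per nucleus (exact permutation p = 0.9). In summed counts, fewer nuclei of a type and less RNA per nucleus cannot be told apart, so levels below are shares of sphincter 1 UMIs.

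No gene passed the threshold for a change between constricted and untreated sphincter 1. Among 7112 genes with enough counts to test, 0 (0%) were called higher and 0 (0%) lower at an adjusted p under 0.05 (edgeR's quasi-likelihood test, Benjamini-Hochberg adjustment) and a log2 fold change beyond 0.6. The smallest adjusted p was 0.0666, shared by Slc38a2, Cntn3, Gm15398, Ism1 and Hs6st3 on the higher side and Pcsk5 on the lower side. At an unadjusted p under 0.05 there were 250 genes higher (3.52%) and 201 lower (2.83%). The DESeq2 Wald test on the same counts called 9 genes higher and 5 lower, 13 of these 14 among the 20 leading genes described below. With the series block, a term for groups of library numbers, 7 were called higher and 16 lower. Constricted replicate 2 was alone in its group there, so that fit rests on constricted replicates 1 and 3. Without the filter on low counts 17 were called higher and 11 lower, and without doublets 3 and 0. The 95% interval of the log2 fold change lay inside -1 to 1 for 4132 of the 7112 genes. This held for 91.1% of the 403 genes over 300 CPM and for 8.96% of the 1328 genes under 30 CPM. Such an interval does not show that a change of this size would have been called. Slc38a2 at 1.24 and Kcnip4 at -0.94 were not.

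**Figure D1:**
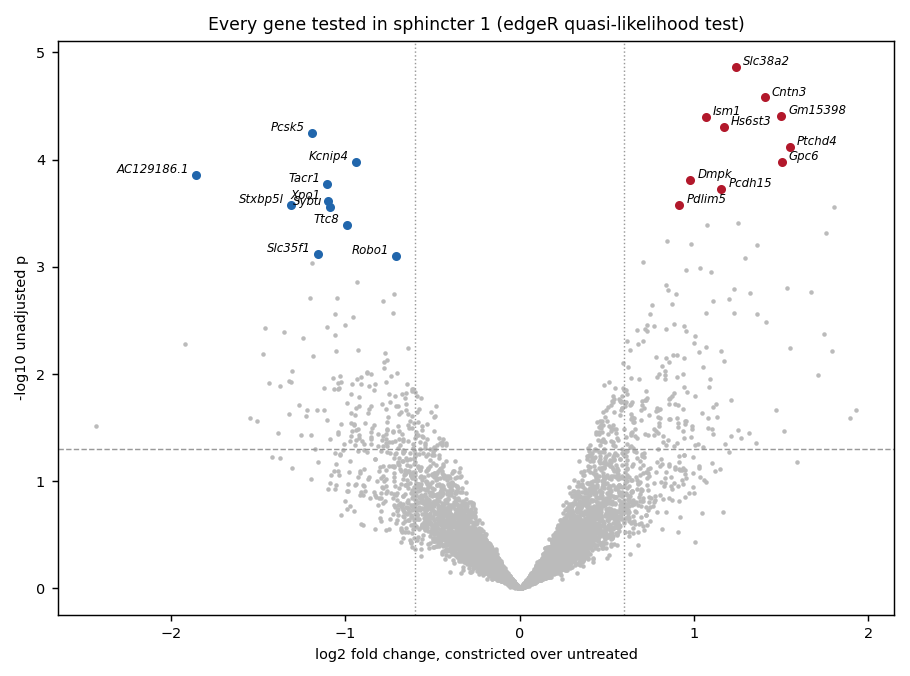
Log2 fold change of constricted over untreated sphincter 1 (x axis) against -log10 of the unadjusted p (y axis) for each of the 7112 genes tested. Red and blue points are the 10 leading genes in each direction, dotted lines mark a log2 fold change of 0.6 either way and the dashed line an unadjusted p of 0.05. None of the points passed an adjusted p of 0.05, and the smallest adjusted p was 0.0666.

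The genes with the smallest p on each side, 10 higher and 10 lower, are described here as leading genes that were not called. They were chosen on this contrast, so that their separation is a description. The 3 constricted and 3 untreated libraries did not overlap for 10 of the 10 higher and 9 of the 10 lower genes; of all genes tested, 356 (5.01%) were without overlap on the higher side and 456 (6.41%) on the lower side.

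Slc38a2, which encodes a sodium-coupled transporter of neutral amino acids, had the smallest p. Its level was 209.7, 262 and 329 CPM in the untreated libraries and 599, 484 and 813 CPM in the constricted libraries, all constricted values lying above all untreated ones. The log2 fold change was 1.24 ± 0.22 (SE; 95% interval 0.78 to 1.70; adjusted p = 0.0666). After thinning every nucleus to 1000 UMIs, 12% to 27.2% of untreated and 26.5% to 53.2% of constricted nuclei per library held a Slc38a2 UMI (52.0% to 57.4% and 64.1% to 78.9% before thinning). In stroma 2 nuclei thinned in the same way the pooled share was 15.4% untreated and 13.9% constricted. The log2 fold change of summed counts was also positive in the 9 other types. It was 0.46 ± 0.20 SE in sphincter 2, and the difference from sphincter 1 was not called (0.74 ± 0.22 SE, adjusted p = 0.433, joint edgeR fit). Without constricted replicate 2 the log2 fold change of Slc38a2 was 1.37, with an adjusted p of 0.0153, and this was then the only gene called.

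Cntn3, a GPI-anchored adhesion protein of the contactin family, was most abundant in sphincter 1 among the iris and ciliary types, with 338 CPM in untreated sphincter 1 and 5.94 to 84.1 CPM in the other types. Its level was 349, 295 and 369 CPM in untreated and 513, 1313 and 839 CPM in constricted libraries. Constricted replicate 2 was the highest library, and replicate 1 was still above each untreated one. The log2 fold change was 1.41 ± 0.27 (SE; 95% interval 0.85 to 1.96; adjusted p = 0.0666), and 1.03 without constricted replicate 2 (adjusted p = 0.111). Thinned shares of nuclei were 19.9% to 32.0% in untreated and 42.2% to 73.5% in constricted libraries (38.0% to 56.0% and 62.1% to 94.1% before thinning), against 3.53% and 2.92% in stroma 2.

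Ism1, the gene of the secreted protein isthmin 1, had tightly grouped values in the constricted libraries. They were 240.3, 242 and 249 CPM, above the 150.5, 110.02 and 110.1 CPM of the untreated libraries, with a log2 fold change of 1.07 ± 0.21 (SE; 95% interval 0.63 to 1.50; adjusted p = 0.0666). Untreated nuclei of this type averaged 124 CPM of Ism1, those of sphincter 2 averaged 109 CPM, and every other type had 32.3 CPM or less.

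Hs6st3 and Gpc6 belong to heparan sulfate biology: Hs6st3 encodes a heparan sulfate 6-O-sulfotransferase and Gpc6 the core protein glypican 6. Hs6st3 was at 209.7, 155 and 197 CPM in untreated and 523, 448 and 265 CPM in constricted libraries (log2 fold change 1.17 ± 0.23 SE, adjusted p = 0.0666). Gpc6 was at 247, 254 and 252 CPM in untreated and 352, 1271 and 534 CPM in constricted libraries (log2 fold change 1.50 ± 0.32 SE, adjusted p = 0.0831). In untreated irises Gpc6 was more abundant in stroma 2 (958 CPM) and in the ciliary body (1272 CPM) than in sphincter 1 (251 CPM), and the thinned share of stroma 2 nuclei with a Gpc6 UMI was 47.0% untreated and 58.5% constricted. The spread of Gpc6 lay in the constricted group, and without constricted replicate 2 its log2 fold change was 0.84.

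Pcdh15, which encodes protocadherin 15, and Gm15398, a long noncoding RNA gene, were higher side by side and occupy the same stretch of chromosome 10. In the GENCODE annotation of GRCm38, Pcdh15 spans chr10:73099342-74649737 on the plus strand and Gm15398 spans chr10:73201399-73327175 within it on the minus strand. Whether the counting used strand is not given in the sources used here, so their reads may not be fully separable. Pcdh15 was at 301, 335 and 422 CPM in untreated and 602, 1259 and 547 CPM in constricted libraries (log2 fold change 1.16 ± 0.26 SE, adjusted p = 0.102). Gm15398 was at 80.6, 82.9 and 141 CPM against 234, 502 and 212 CPM (log2 fold change 1.50 ± 0.29 SE, adjusted p = 0.0666). Both genes were more abundant in untreated stroma 2 than in sphincter 1, at 1926 and 458 CPM. The summed stroma 2 markers in sphincter 1 averaged 239.9 CPM in constricted and 253 CPM in untreated libraries (exact permutation p = 0.7). Without constricted replicate 2 the log2 fold changes were 0.69 for Pcdh15 and 1.04 for Gm15398.

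Dmpk and Pdlim5 encode proteins known from muscle. Dmpk encodes the myotonic dystrophy protein kinase and was most abundant in sphincter 1, while Pdlim5 encodes a PDZ and LIM domain protein of the Z-disc and actin filaments. Dmpk was at 209.7, 159 and 172 CPM in untreated and 263, 393 and 375 CPM in constricted libraries (log2 fold change 0.98 ± 0.21 SE, adjusted p = 0.0992). Pdlim5 was at 172, 255 and 258 CPM against 415, 502 and 411 CPM (log2 fold change 0.92 ± 0.21 SE, adjusted p = 0.110). Ptchd4, of the patched-domain family, was the least abundant of the 10, at 21.5, 25.5 and 22.6 CPM in untreated and 75.7, 60.5 and 66.4 CPM in constricted libraries, which rest on 45 and 53 UMIs in all (log2 fold change 1.55 ± 0.32 SE, adjusted p = 0.0775).

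**Figure D2:**
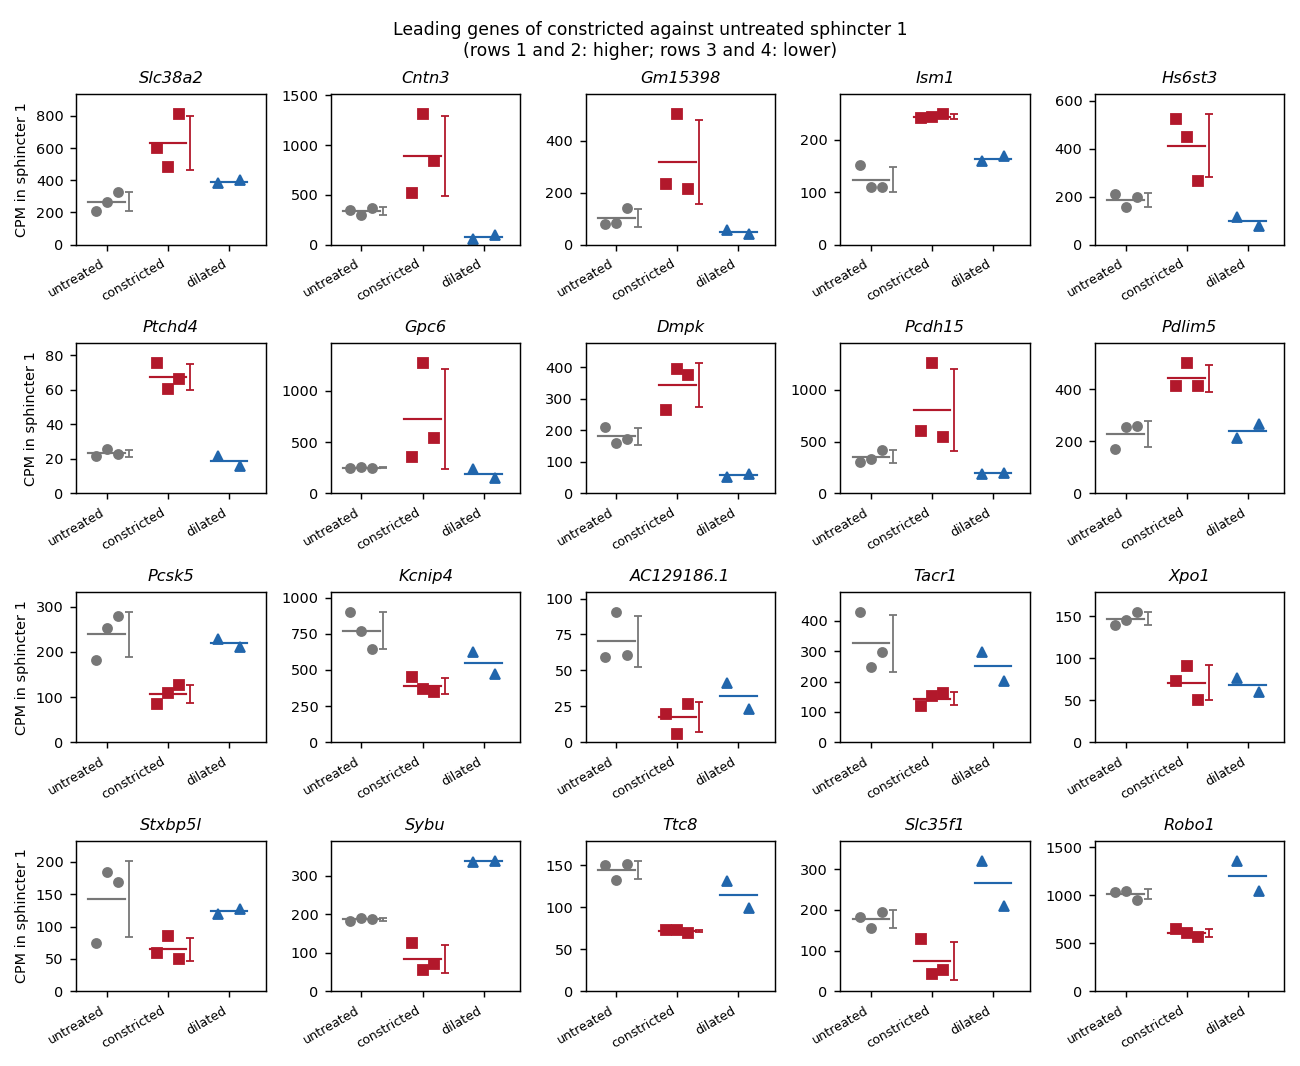
Level in sphincter 1 (y axis, CPM, linear from 0) of the 20 leading genes in each untreated (grey circles), constricted (red squares) and dilated (blue triangles) library. Horizontal lines are group means and error bars the SD of 3 libraries, with none drawn for the 2 dilated libraries. For Slc38a2 the 3 constricted libraries sit between 484 and 813 CPM and the 3 untreated libraries between 209.7 and 329 CPM.

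On the lower side, Pcsk5, a proprotein convertase that cleaves secreted precursors, had the smallest p. Its level was 183, 254 and 280 CPM in untreated and 85.6, 109 and 126 CPM in constricted libraries, without overlap. The log2 fold change was -1.19 ± 0.24 (SE; 95% interval -1.68 to -0.69; adjusted p = 0.0666). The thinned share of nuclei with a Pcsk5 UMI was 20.0% to 26.0% in untreated and 5.88% to 10.6% in constricted libraries (40.0% to 44.5% and 17.5% to 32.4% before thinning), against 16.3% and 13.8% in stroma 2.

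Tacr1 encodes the neurokinin 1 receptor for substance P, a neuropeptide of sensory nerves that contracts the sphincter in several mammals. It was most abundant in sphincter 1 among the types. The untreated libraries were at 430.1, 249 and 299 CPM and the constricted libraries at 118, 151 and 163 CPM. All constricted values lay below all untreated ones, with a log2 fold change of -1.10 ± 0.24 (SE; 95% interval -1.61 to -0.60; adjusted p = 0.0992).

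Xpo1 encodes exportin 1, the receptor for nuclear export signals, and Ttc8 a subunit of the BBSome of the primary cilium. Xpo1 was at 139.8, 145 and 155 CPM in untreated and 72.4, 90.8 and 49.8 CPM in constricted libraries (log2 fold change -1.10 ± 0.25 SE, adjusted p = 0.110). Ttc8 was at 150.5, 132 and 152 CPM against 72.4, 72.6 and 69.7 CPM (log2 fold change -0.99 ± 0.24 SE, adjusted p = 0.137). In both genes all constricted values lay below all untreated ones.

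The other 6 leading genes on the lower side were Kcnip4, AC129186.1, Stxbp5l, Sybu, Slc35f1 and Robo1. Kcnip4 encodes a potassium channel interacting protein and was at 903, 772 and 644 CPM in untreated and 454, 369 and 348 CPM in constricted libraries (log2 fold change -0.94 ± 0.20 SE, adjusted p = 0.0831). Sybu encodes syntabulin, a kinesin adaptor, and was at 183, 189.8 and 187 CPM against 125, 54.5 and 69.7 CPM (log2 fold change -1.09 ± 0.25 SE, adjusted p = 0.110). Robo1, a receptor for Slit guidance proteins, was at 1038, 1049 and 952 CPM against 648, 611 and 564 CPM (log2 fold change -0.71 ± 0.18 SE, adjusted p = 0.206). The other values were smaller and noisier. Stxbp5l, which encodes tomosyn-2, overlapped between the groups, since untreated replicate 1 was at 75.3 CPM and constricted replicate 2 at 84.7 CPM (log2 fold change -1.31 ± 0.30 SE, adjusted p = 0.110). Slc35f1, of the solute carrier family, ranged from 155 to 196 CPM in untreated and from 42.4 to 128 CPM in constricted libraries (log2 fold change -1.16 ± 0.30 SE, adjusted p = 0.206). AC129186.1 rested on 135 untreated and 15 constricted UMIs, with a log2 fold change of -1.86 ± 0.40 SE (adjusted p = 0.0992), and is named here as in the files.

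All 6 of these genes were more abundant in untreated dilator muscle, and also in sphincter 2, than in sphincter 1, as AC129186.1 with 951 and 1258 CPM against 70.2 CPM. Of the 10 leading genes on the lower side, 6 were more abundant in dilator muscle than in sphincter 1 and 8 in sphincter 2. Of the 10 leading genes on the higher side, 2 were more abundant in dilator muscle and 0 in sphincter 2. The same share over all genes tested is not given here. The 6 dilator markers (Adra1a, Nos1, Cit, Unc13c, Sv2b and Reln) summed to 677 to 788 CPM in untreated and 357 to 487 CPM in constricted sphincter 1, without overlap, and the mean of each of the 6 was lower in the constricted libraries (exact permutation p = 0.1, adjusted p = 0.55 over 11 marker lists). Most of this sum was Unc13c (220 to 319 against 115 to 159 CPM) and Sv2b (225 to 258 against 155 to 179 CPM). Both are also on the list of neuronal and exocytosis genes. Unc13c, Sv2b and Reln did not overlap between the groups. Adra1a, Nos1 and Cit did, as Cit at 86.0 to 116 CPM in untreated and 36.3 to 103 CPM in constricted libraries. The 4 ciliary body markers summed to 1861 to 2322 CPM against 1384 to 1749 CPM, and most of this sum was Kcnq5, at 1587 to 2011 CPM and 1208 to 1598 CPM, which is itself abundant in sphincter 1. Of nuclei of every type, 1.01%, 1.06% and 1.15% in the untreated and 0.83%, 0.78% and 0.38% in the constricted libraries were called doublets. Within sphincter 1, nuclei called doublets were 2.00%, 11.4% and 8.71% in the untreated and 5.83%, 2.94% and 2.11% in the constricted libraries. Without these nuclei AC129186.1 had a log2 fold change of -1.09 (adjusted p = 0.834), Kcnip4 of -0.77 and Sybu of -1.01, while the 10 leading genes on the lower side all kept their direction. Without nuclei holding other types' low-level markers, a setting chosen after seeing the data, the values were -1.73 for AC129186.1, -0.94 for Kcnip4, -1.09 for Sybu, -1.34 for Stxbp5l, -1.14 for Slc35f1 and -0.77 for Robo1. The lists of that setting held no markers of dilator muscle or sphincter 2, so these values do not bear on RNA from those muscles.

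The promoters of leading genes were searched for short motifs of factors that act downstream of calcium, cyclic AMP and growth signals, on both strands of the 300 bases around the RefSeq start (250 before and 50 after, GRCm38.p6). Of the 20 leading genes, 15 had an entry. TGACG, the core of the cyclic AMP response element, was found in 3 of 15, against 21.0% of 27025 promoters. TGANTCA, the AP-1 site, was found in 1 of 15 (7.93% of all promoters), CACGTG, an E-box, in 0 (7.24%), and the CArG box bound by serum response factor in 1 (1.57%), without overlap between the matches. The 3 promoters with TGACG are shown because they belong to the gene with the smallest p and to 2 genes on the lower side, with the match in capitals on the strand of the gene: Slc38a2 at chr15:96699679-96699978 (minus strand, 73.0% G or C), Tacr1 at chr6:82402225-82402524 (plus strand) and Xpo1 at chr11:23255791-23256090 (plus strand). In Tacr1 the match reads as its reverse complement.
Slc38a2: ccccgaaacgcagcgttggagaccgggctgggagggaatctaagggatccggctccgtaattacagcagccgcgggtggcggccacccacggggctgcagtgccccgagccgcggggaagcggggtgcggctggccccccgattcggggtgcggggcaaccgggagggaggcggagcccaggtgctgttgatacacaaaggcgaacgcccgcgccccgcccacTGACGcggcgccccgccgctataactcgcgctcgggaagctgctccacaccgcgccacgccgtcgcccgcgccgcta
Tacr1: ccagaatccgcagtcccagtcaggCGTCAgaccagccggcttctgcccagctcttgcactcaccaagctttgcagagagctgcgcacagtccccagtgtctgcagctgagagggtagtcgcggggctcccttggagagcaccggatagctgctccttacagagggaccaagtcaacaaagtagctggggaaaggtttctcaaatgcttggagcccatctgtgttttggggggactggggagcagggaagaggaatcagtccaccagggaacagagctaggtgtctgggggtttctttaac
Xpo1: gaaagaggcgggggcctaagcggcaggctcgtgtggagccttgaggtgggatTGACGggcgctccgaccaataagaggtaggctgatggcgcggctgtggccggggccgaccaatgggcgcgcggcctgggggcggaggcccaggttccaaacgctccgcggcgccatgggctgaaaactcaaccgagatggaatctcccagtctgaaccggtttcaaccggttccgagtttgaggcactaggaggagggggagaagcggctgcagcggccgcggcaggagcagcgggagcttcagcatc
A match of letters is not a bound site.

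The log2 fold changes of the receptor genes tested, Chrm3 and Chrm2, were close to 0. Chrm3 was at 4086, 3787 and 4001 CPM in untreated and 4601, 3420 and 2415 CPM in constricted sphincter 1. The constricted libraries bracketed the untreated ones, with the lowest value in replicate 3, and the log2 fold change was -0.17 ± 0.20 (SE; 95% interval -0.57 to 0.24; adjusted p = 0.959). A Chrm3 UMI was present in 92.8% to 98.0% of untreated and 85.1% to 97.1% of constricted nuclei thinned to 1000 UMIs (98.4% to 100% and 95.8% to 100% before thinning), against 0.96% and 0.91% in stroma 2. Chrm2, the receptor M2 that couples to Gi, was at 333, 274 and 338 CPM and at 326, 466 and 209 CPM, respectively, a log2 fold change of 0.07 ± 0.23 (SE; 95% interval -0.41 to 0.55; adjusted p = 0.986). Chrm1 (21 untreated and 6 constricted UMIs) and Chrm4 (1 and 0 UMIs) were too low to test. Of the 7 genes of the list of muscarinic receptors and acetylcholine breakdown, only Chrm2 and Chrm3 were tested.

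Downstream of the receptor, 23 of the 31 genes of the Gq pathway list were tested. Of these, 14 had a positive and 9 a negative log2 fold change (3628 and 3484 over all genes tested). The median was 0.07, against 0.01 over all genes tested. At an unadjusted p under 0.05, 2 were higher and 0 lower, against 3.52% and 2.83% of all genes tested. Plcb4, the phospholipase C beta of this muscle, was at 2704, 2889 and 2866 CPM in untreated and 2900, 3420 and 2601 CPM in constricted libraries, a log2 fold change of 0.10 with an interval of -0.26 to 0.46. Itpr1, the inositol trisphosphate receptor, had a log2 fold change of 0.42 ± 0.21 SE (interval -0.01 to 0.84, adjusted p = 0.799), and Dgki, a diacylglycerol kinase, of 0.20 ± 0.21 SE. Dgkb, another kinase that removes diacylglycerol, had the smallest p of the list. Its level was 763, 380 and 443 CPM in untreated and 740.5, 1386 and 813 CPM in constricted libraries, overlapping between constricted replicate 1 and untreated replicate 1 (log2 fold change 0.95 ± 0.25 SE, adjusted p = 0.237).

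Of the 24 RGS proteins, receptor kinases and arrestins, 7 were abundant enough to test, with a median of 0.10. These were Rgs6, Rgs7, Rgs9, Rgs11, Grk4, Grk5 and Grk6. No arrestin was tested, so nothing can be said about arrestins or the other untested members. At an unadjusted p under 0.05 (3.52% higher and 2.83% lower over all genes tested), 0 of the 7 were higher and 1 was lower. That gene was Rgs9, a GTPase activator for G protein alpha subunits, at 48.4, 63.8 and 69.5 CPM in untreated and 32.9, 48.4 and 29.9 CPM in constricted libraries (log2 fold change -0.84 ± 0.31 SE, adjusted p = 0.655). Rgs7 (0.24 ± 0.27 SE), Rgs6 (0.01 ± 0.41 SE) and Grk4, a receptor kinase (0.10 ± 0.30 SE), had log2 fold changes within their intervals of 0.

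Among calcium channels, stores and pumps, 33 of 57 genes were tested, 4 were higher and 2 lower at an unadjusted p under 0.05, against 3.52% and 2.83% of all genes tested, and the median was 0.09. The median SE was 0.24 in the list and 0.32 over all genes tested. The counts were 1 and 0 without untreated replicate 2, 1 and 2 without untreated replicate 3, 2 and 2 without constricted replicate 2 and 2 and 4 with the series block, where the median was -0.02. Atp2a2, the calcium pump of the sarcoplasmic reticulum, was at 866, 855 and 818 CPM in untreated against 938, 1459 and 999 CPM in constricted libraries, without overlap (log2 fold change 0.44 ± 0.20 SE, adjusted p = 0.730). The channel subunit gene Cacnb2 (0.04 ± 0.23 SE) and Ryr3, a calcium release channel (0.12 ± 0.20 SE), were near 0.

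The smooth muscle contraction list held the largest count of genes that leaned to one side. Of 50 genes 46 were tested, 37 with a positive log2 fold change (3628 of 7112 over all genes tested). At an unadjusted p under 0.05, 12 were higher and 0 lower, that is 12 of 46 against 3.52% and 2.83% of all genes tested. The median SE was 0.21 in the list and 0.32 over all genes tested. A shift of a given size thus reached a small p more easily in the list, and the shares are not like for like. The median log2 fold change was 0.20. None was called, and 37 of the 46 had a 95% interval inside -1 to 1. The median shift of the list from the untreated mean was 0.18, 0.23 and 0.14 on the log2(CPM + 1) scale in constricted replicates 1 to 3 and 0.15, -0.08 and -0.05 in the untreated replicates, so untreated replicate 1 overlapped the constricted libraries. Leaving out untreated replicate 3 gave 7 of 45 genes higher and a median of 0.14, untreated replicate 2 gave 8 of 45 and 0.21, constricted replicate 2 or 3 gave 9 of 45, and leaving out doublets 11 of 45 and a median of 0.18. Dmd, dystrophin, was at 2414, 1711 and 2136 CPM in untreated and 2659, 3474 and 2601 CPM in constricted libraries (log2 fold change 0.51 ± 0.19 SE, adjusted p = 0.644). Flna, filamin A, was at 860.2, 861 and 832 CPM against 1083, 1126 and 1284 CPM (0.48 ± 0.18 SE, adjusted p = 0.651). Myh11, smooth muscle myosin heavy chain, had a log2 fold change of 0.28 ± 0.17 SE, Mylk, myosin light chain kinase, of -0.14 ± 0.17 SE, and Myl9, the regulatory light chain, of 0.11 ± 0.22 SE.

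Sphincter 1 also expresses genes of striated muscle proteins, and 12 of the 51 on the list were tested. Of these, 10 had a positive log2 fold change (3628 of 7112 over all genes tested). At an unadjusted p under 0.05, 3 were higher and 0 lower, against 3.52% and 2.83% of all genes tested. The median log2 fold change was 0.31, and the median SE was 0.22 against 0.32 over all genes tested. The constricted libraries were at 0.18, 0.53 and 0.20 above the untreated mean on the log2(CPM + 1) scale, and without constricted replicate 2 the count was 1 of 12 and the median 0.18. Without untreated replicate 2 the count was 0 of 12 and the median 0.33. Ttn, the giant sarcomere protein titin, was at 2038, 1325 and 1687 CPM in untreated and 1777, 3159 and 2468 CPM in constricted libraries, overlapping in replicate 1 of both groups (log2 fold change 0.59 ± 0.22 SE, interval 0.14 to 1.05, adjusted p = 0.655). Mybpc1, a myosin binding protein, had a log2 fold change of 0.37 ± 0.20 SE, and Ctnna3, alpha-T-catenin, of 0.42 ± 0.21 SE.

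Of 60 matrix and adhesion genes, 35 were tested, 29 with a positive log2 fold change (3628 of 7112 over all genes tested). At an unadjusted p under 0.05, 8 were higher and 0 lower, against 3.52% and 2.83% of all genes tested, and the median log2 fold change was 0.24. The 3 constricted libraries were 0.31, 0.27 and 0.21 above the untreated mean on the log2(CPM + 1) scale and the untreated libraries between -0.04 and 0.01; the count was 5 of 34 without constricted replicate 2 and 5 of 33 without untreated replicate 2 or 3, with medians of 0.28, 0.37 and 0.21. Itga1, an integrin subunit that binds collagen, was at 139.8, 94.1 and 109 CPM in untreated and 151, 357 and 189.1 CPM in constricted libraries (log2 fold change 1.04 ± 0.27 SE, adjusted p = 0.233). Col4a6 and Col4a5, which encode chains of basement membrane collagen, had log2 fold changes of 0.71 ± 0.23 SE and 0.48 ± 0.22 SE, and Adamts5, a protease of proteoglycans, of 0.55 ± 0.20 SE. Members of the serum response factor and YAP target list were closer to 0, with 2 of 13 higher, 0 lower and a median of 0.16; Tpm1, a tropomyosin, was at 0.25 ± 0.17 SE.

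**Figure D3:**
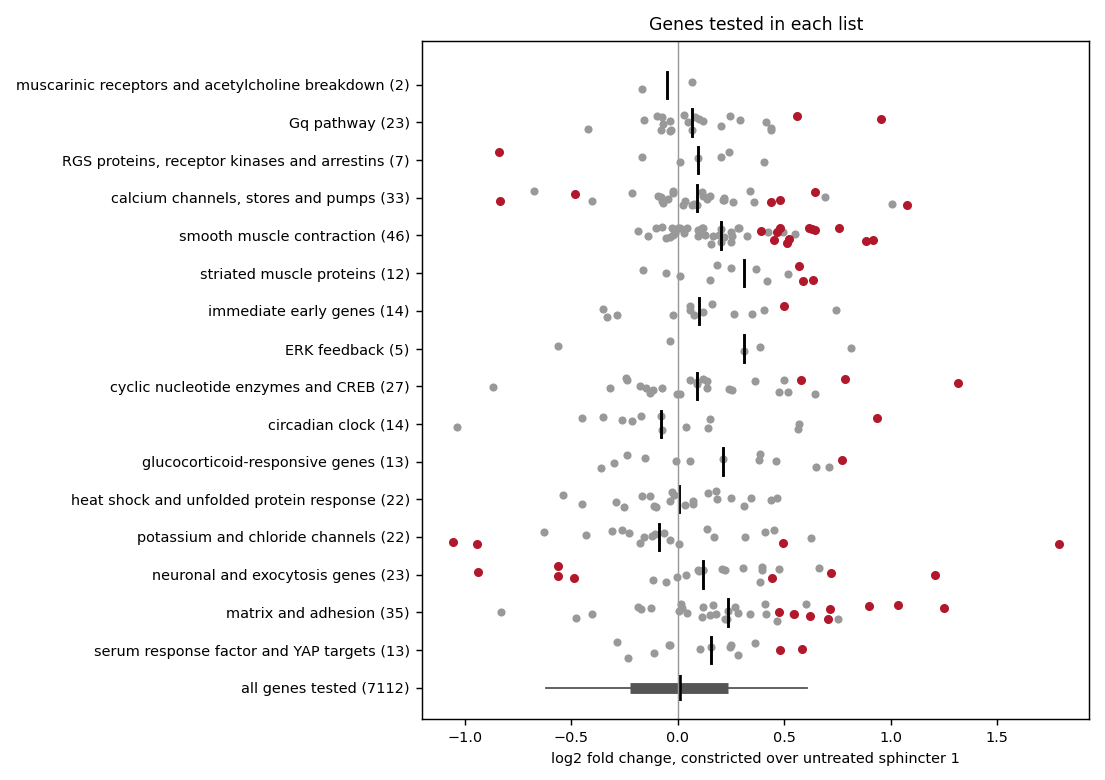
Log2 fold change of constricted over untreated sphincter 1 (x axis) for the tested genes of 16 lists, with the number tested in brackets. Points are genes, red at an unadjusted p under 0.05, vertical bars are list medians, and for all genes tested the thick bar spans the 25th to 75th percentile and the thin line the 5th to 95th percentile. The smooth muscle contraction list has 12 red points, all to the right of 0, and a median of 0.20.

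For lists of genes that respond to stimulation the counts were small. Many of their members were not tested, and for those nothing can be said. Over all genes tested, 3.52% were higher and 2.83% lower at an unadjusted p under 0.05, the share for each list count from here on. Of 48 immediate early genes 14 were tested, with 1 higher and 0 lower at an unadjusted p under 0.05 and a median of 0.10. The gene was Zfp36l1, an RNA-binding protein that destabilizes transcripts, at 150.5, 148 and 172 CPM in untreated and 181, 242 and 246 CPM in constricted libraries (log2 fold change 0.50 ± 0.21 SE, adjusted p = 0.711). Homer1, a scaffold of metabotropic and inositol trisphosphate receptors, had a log2 fold change of 0.35 ± 0.24 SE, and Nptx2, a pentraxin, of 0.12 ± 0.24 SE. Of the 23 genes of ERK feedback 5 were tested, with 0 higher and 0 lower at that threshold. Dusp10, a phosphatase of MAP kinases, had the smallest p (log2 fold change -0.56 ± 0.37 SE, adjusted p = 0.942), Dusp16 was at -0.04 ± 0.34 SE and Spred1, an inhibitor of Ras signalling, at 0.31 ± 0.40 SE.

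Of 45 cyclic nucleotide enzymes and CREB genes 27 were tested, with 3 higher, 0 lower and a median of 0.09. Pde10a, a phosphodiesterase of both cyclic nucleotides, was at 10.8, 20.7 and 20.8 CPM in untreated and 52.7, 72.6 and 29.9 CPM in constricted libraries, without overlap (log2 fold change 1.32 ± 0.37 SE, adjusted p = 0.302). Prkg1, the protein kinase that cyclic GMP activates, was at 0.58 ± 0.23 SE, Pde4d at 0.09 ± 0.17 SE and Pde1c at -0.0050 ± 0.19 SE. Of 24 circadian clock genes 14 were tested, with 1 higher (Rorb, 0.94 ± 0.41 SE) and 0 lower; Clock was at 0.04 ± 0.23 SE, Rora at -0.26 ± 0.19 SE and Tef at -0.17 ± 0.26 SE. Of 20 genes that respond to glucocorticoids 13 were tested, with 1 higher (Mertk, a receptor kinase of phagocytosis, 0.77 ± 0.24 SE) and 0 lower; Nr3c2, the mineralocorticoid receptor, was at -0.16 ± 0.23 SE and Mt1, a metallothionein, at -0.01 ± 0.27 SE. Of 43 heat shock and unfolded protein response genes 22 were tested, with 0 higher, 0 lower and a median of 0.01; Hspa4 was at -0.10 ± 0.26 SE, Canx at 0.07 ± 0.24 SE and Manf at 0.44 ± 0.24 SE.

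Of 50 potassium and chloride channel genes 22 were tested, with 2 higher and 2 lower and a median of -0.09. Kcnip4, above, had the smallest p; Kcnma1, the large-conductance calcium-activated channel, was at 0.45 ± 0.26 SE, Kcnb2 at 0.17 ± 0.20 SE and Kcnq5 at -0.31 ± 0.18 SE. Of 46 neuronal and exocytosis genes 23 were tested, with 3 higher and 4 lower and a median of 0.12. Unc13c, a priming factor of vesicle release that is also among the dilator markers, was at 220.4, 319 and 273 CPM in untreated and 145, 115 and 159 CPM in constricted libraries (log2 fold change -0.94 ± 0.26 SE, adjusted p = 0.290). Nlgn1, a synaptic adhesion protein, was at -0.56 ± 0.22 SE, Syt1, a calcium sensor of exocytosis, at -0.12 ± 0.18 SE, and Sh3gl2, an endophilin, at 0.12 ± 0.21 SE. These small counts varied as single libraries were left out: 1 to 4 higher for the Gq pathway, 2 to 5 for cyclic nucleotide enzymes, 0 to 4 higher and 1 to 3 lower for the channels, and 1 to 4 higher and 2 to 4 lower for the neuronal genes. Over all genes, 140 of 6414 were higher without untreated replicate 2 and 135 of 6440 without untreated replicate 3.

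Whether the constriction effect differed between sphincter 1 and the other muscles was tested in joint fits of both types with a term for each library. Against sphincter 2 (7719 genes tested), 0 genes (0%) had a higher and 2 (0.0259%) a lower effect in sphincter 1. Both are leading genes: Sybu, with a log2 fold change of -1.09 in sphincter 1 and 0.27 ± 0.20 SE in sphincter 2 (difference -1.34 ± 0.27 SE, adjusted p = 0.0350), and AC129186.1, with -1.86 and 0.17 ± 0.19 SE (difference -1.94 ± 0.39 SE, adjusted p = 0.0350). Both differences lost the call when doublets were left out and when the fit held only the 6 libraries, with 0 genes called each time. Pcsk5 was lower by a like amount in both sphincter types, at -1.31 ± 0.26 SE in sphincter 2 (difference 0.10 ± 0.28 SE), where it was 1 of the 2 genes called lower (0.0299% of 6691), beside 4 called higher (0.0598%). Ism1 was at 0.85 ± 0.27 SE and Stxbp5l at -1.11 ± 0.24 SE in sphincter 2.

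Untreated dilator muscle had 22.3 CPM of Chrm3 and 630 CPM of Chrm2, against 3958 and 315 CPM in sphincter 1, so it is not without muscarinic receptor RNA. Against the dilator muscle, 28 of 13060 genes had a different effect, 13 higher in sphincter 1 (0.0995%) and 15 lower (0.115%). Of these 28, 10 were leading genes of sphincter 1, which the constriction contrast had picked. Cntn3 differed most clearly, with a log2 fold change of -0.50 ± 0.22 SE in the dilator (difference 1.68 ± 0.22 SE, adjusted p = 3.15e-07). Hs6st3 was at 0.03 ± 0.16 SE in the dilator (difference 1.11 ± 0.18 SE, adjusted p = 0.000117) and Slc38a2 at 0.24 ± 0.18 SE (difference 0.98 ± 0.19 SE, adjusted p = 0.00224). The differences for Pcdh15, Gpc6, Pcsk5, AC129186.1, Sybu, Slc35f1 and Robo1 ran from -1.79 to 1.18, in the direction of the sphincter 1 effect for each of the 7. Dgkb also differed (1.15 ± 0.28 SE, adjusted p = 0.0410), with an imprecise dilator value of -1.01 ± 0.74 SE. The joint fit gave each gene 1 estimate of spread for both types. The constricted and untreated libraries held 776 sphincter 1 and 7733 dilator nuclei. For Gpc6 the SE was 0.21 for the difference, against 0.32 in sphincter 1 and 0.29 in the dilator fitted apart. The p-values of the differences hold only as far as both types share that spread. Within the dilator, 1 of 15395 genes was called higher with constriction (0.0065%) and 0 lower (0%). The count of 28 fell to 7 to 12 when any of untreated replicates 2 and 3 or constricted replicates 2 and 3 was left out, and reached 50 without constricted replicate 1.

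**Figure D4:**
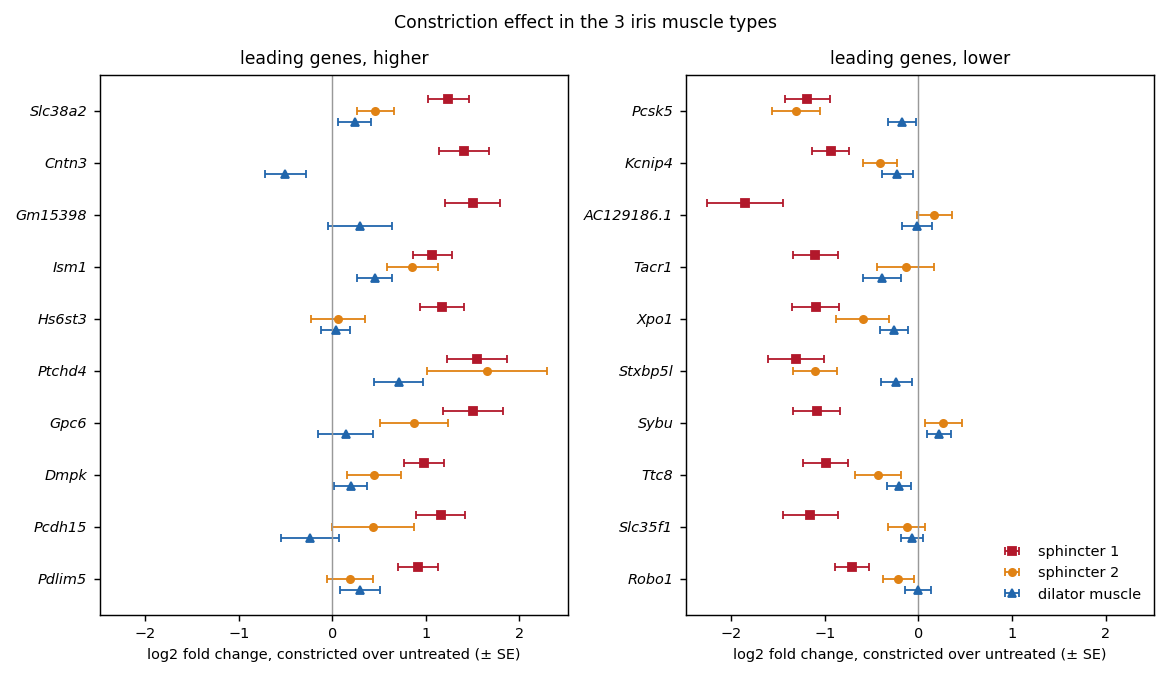
Log2 fold change of constricted over untreated (x axis, ± SE) of the 10 leading genes higher (left) and the 10 lower (right) in sphincter 1, in sphincter 1 (red squares), sphincter 2 (orange circles) and dilator muscle (blue triangles). Genes without an orange point were too low to test in sphincter 2. Cntn3 sits at 1.41 in sphincter 1 and -0.50 in the dilator.

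The dilated libraries give a scale for these values in the same muscle. Dilated and constricted libraries were compared with the same 3 untreated libraries, so that the contrasts share those samples and are set side by side only. Dilation called 45 of 7112 genes higher (0.633%) and 94 lower (1.32%) in sphincter 1, with 2 dilated libraries of 103 and 132 nuclei. Cntn3 was at 60.0 and 96.9 CPM in the dilated libraries, below the untreated 295 to 369 CPM, and fell by 2.04 on the log2 scale (adjusted p = 0.00266), while its constriction value was 1.41. Dmpk, at 51.8 and 62.3 CPM, had a log2 fold change of -1.57 ± 0.29 SE with dilation (adjusted p = 0.00391) against 0.98 with constriction. Dgkb, at 161 and 129 CPM, had -1.78 ± 0.32 SE (adjusted p = 0.00351) against 0.95.

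Ttn fell with dilation by 1.84 on the log2 scale, to 393 and 510.0 CPM (adjusted p = 0.000499), and had 0.59 with constriction. Sybu rose with dilation to 335 and 339 CPM (0.88 ± 0.23 SE, adjusted p = 0.0413) and had -1.09 with constriction. Of the 20 leading genes only Cntn3, Dmpk, Sybu and Xpo1 were called with dilation, and the other 16 had dilation values of -1.15 (AC129186.1) to 0.60 (Slc35f1). Pde10a rose with dilation to 177 and 148 CPM (3.06 ± 0.31 SE, adjusted p = 4.44e-06) and was at 1.32 with constriction, and Xpo1 was lower by 1.10 in both, called with dilation (adjusted p = 0.0278). Chrm2 fell by 2.68 with dilation, to 49.1 and 46.2 CPM (adjusted p = 4.33e-05), against 0.07 with constriction, and Chrm3 stood at 5203 and 3971 CPM (0.25 ± 0.22 SE, adjusted p = 0.807).

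**Figure D5:**
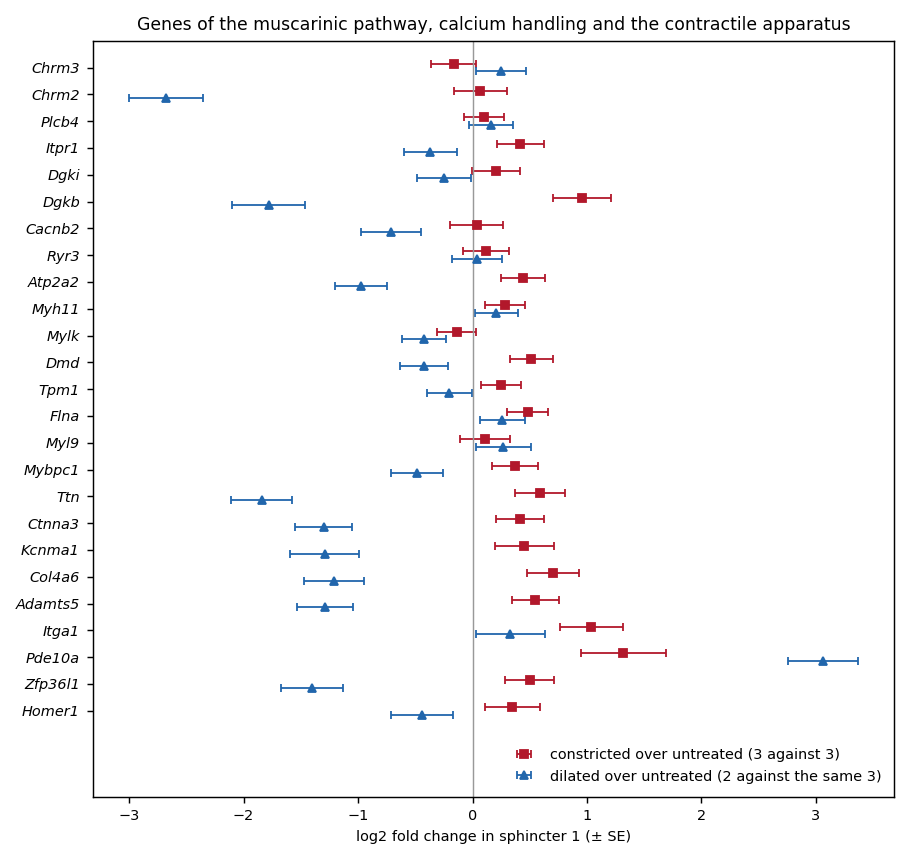
Log2 fold change in sphincter 1 (x axis, ± SE) of genes of the muscarinic pathway, calcium handling, contraction and matrix, for constricted (red squares) and dilated (blue triangles) over the same 3 untreated libraries. Chrm3 lies near 0 in both contrasts, while Ttn is at 0.59 with constriction and -1.84 with dilation.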

How the data were processed

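Nuclei of mouse irises were profiled by 10x Chromium 3′ single-nucleus RNA-seq in 8 libraries. According to the labels and the study's methods, the authors aligned reads to a pre-mRNA index of mm10 with Cell Ranger 3.1.0, filtered nuclei on transcripts and mitochondrial share, clustered them with Seurat and deposited UMI counts per gene and nucleus with cell type names; the deposited mitochondrial content is in percent. Cell types were taken from that annotation.

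Counts were summed per library over sphincter 1 nuclei (22873 genes), filtered with filterByExpr, scaled by TMM and fitted for all 8 libraries with edgeR 4.0.16 (glmQLFit, glmQLFTest; Benjamini-Hochberg over the 7112 genes tested). A call needed an adjusted p under 0.05 and a log2 fold change beyond 0.6. Joint fits of both cell types with library terms tested differences between muscles. Measures per library were compared by two-sided exact permutation tests. The edgeR fits were also run on simulated counts with the same spread for every gene. That outcome is not given here and is not used as support. Shares of nuclei were taken after thinning to 1000 UMIs, which left out at most 3 shallower nuclei per library. CPM in other types are means of the untreated libraries. Doublets were called per library with Scrublet (scanpy 1.11.5) and kept in the main fit. Alternatives were RLE scaling, no filter, DESeq2 1.42.0 and a replicate block. Another was a series block of library numbers 2 to 4, 13 (constricted replicate 2 alone) and 15 to 18. Further ones were no doublets, nuclei without other types' markers, 6 libraries, and each library left out. The marker setting dropped nuclei with 3 or more UMIs summed over any single list. Dilator muscle and sphincter 2 were not among its lists.

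The members and gene lists were chosen with earlier results of these data known. Named genes are, for each direction, those called or else the 10 with the smallest p, the muscarinic receptors, and in each list the 3 of highest mean CPM and the 1 of smallest p; others were named after their values were seen. A gene that this rule names is not reported here. Fold changes are on edgeR's log2 scale. Counts cover sampling of molecules only. Positions are from GENCODE vM21 and promoters from RefSeq GRCm38.p6. Replicate numbers did not pair samples: deviations of same-numbered untreated and constricted libraries correlated at 0.020, -0.068 and 0.106.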

Additional observations from a re-analysis of the deposited data

Results flagged for a closer look

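The constriction effect of 11 named genes differed between sphincter 1 and another muscle by the joint test (adjusted p under 0.05). Against the dilator muscle the difference, sphincter 1 minus dilator on the log2 scale, was 1.68 for Cntn3, 1.18 for Pcdh15, 1.15 for Dgkb, 1.11 for Hs6st3, 1.08 for Gpc6 and 0.98 for Slc38a2. It was -0.72 for Robo1, -1.05 for Pcsk5, -1.10 for Slc35f1, -1.31 for Sybu and -1.79 for AC129186.1. Against sphincter 2 it was -1.34 for Sybu and -1.94 for AC129186.1. These genes were picked for a small p in the sphincter 1 contrast, which enters the difference, Dgkb as the smallest p of the Gq pathway list. The joint test also took the same spread for both types of a pair. AC129186.1 and Sybu were more abundant in untreated sphincter 2 and dilator muscle than in sphincter 1. Both differences from sphincter 2 lost the call without doublets, where the log2 fold change in sphincter 1 was -1.01 for Sybu and -1.09 for AC129186.1. Without nuclei holding other types' low-level markers it was -1.09 and -1.73, but that setting used no markers of dilator muscle or sphincter 2.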

How the results depend on the processing

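The count of genes called with constriction in sphincter 1 was 0 higher and 0 lower as reported. Without the filter on low counts it was 17 and 11, with DESeq2 9 and 5, with the series block 7 and 16, without doublets 3 and 0, and without nuclei holding other types' low-level markers, an alternative chosen after seeing the data, 5 and 0. It was 0 and 0 with RLE scaling, with 6 libraries and without a limit on the fold. It was also 0 and 0 without nuclei holding 3 or more UMIs of other types' listed markers. In that setting 3 to 31 nuclei per library remained and 1417 genes were tested. The replicate block gave 3 higher and 0 lower, and not every sample correlated best with its own number. The series block left constricted replicate 2 alone in its group. With single libraries left out, 0 to 5 were higher and 0 to 2 lower: 5 and 2 without constricted replicate 1, 1 and 0 without constricted replicate 2, 2 and 0 without constricted replicate 3, 1 and 2 without untreated replicate 1, 2 and 0 without either dilated library, and 0 and 0 without untreated replicate 2 or 3.

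With dilation, 45 higher and 94 lower as reported became 71 and 139 without the filter and 16 and 70 with DESeq2. They became 136 and 189 with the series block and 32 and 92 with the replicate block. Without nuclei holding 3 or more UMIs of other types' markers they were 2 and 4. With single libraries left out they were 8 to 70 and 27 to 116. Genes differing from sphincter 2, 2 as reported, numbered 0 with 6 libraries, 0 without doublets and 0 to 10 with single libraries left out. Genes differing from the dilator, 28 as reported, numbered 16 with 6 libraries and 7 to 50 with single libraries left out. The difference in the share of nuclei was -1.06 percentage points, and -1.10 of iris nuclei only, where the groups overlapped. With single libraries left out, the difference for all nuclei ranged from -1.46 to -0.51. That in median UMIs, 24.5, was -18 without doublets and -552 to 324 with single libraries left out. The causes were not tested.

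The 20 leading genes kept their direction in each setting that tested them (335 values). They were picked for a small p in this contrast and the settings drew on the same libraries. Kept direction was thus largely set by that choice and is a description. In the series block constricted replicate 2 stood alone, so its constriction values rest on constricted replicates 1 and 3. Among 54 other named genes 68 of 902 values of the log2 fold change turned sign. With the series block, it was -0.30 for Chrm2, -0.011 for Plcb4, -0.12 for Dgki, -0.21 for Rgs7, -0.80 for Rgs6, -0.38 for Cacnb2, -0.12 for Ryr3, -0.016 for Nptx2, -0.017 for Pde4d, 0.059 for Tef, 0.35 for Mt1, -0.012 for Canx, -0.074 for Kcnb2 and -0.20 for Sh3gl2. Without nuclei holding other types' low-level markers, it was -0.056 for Grk4, -0.026 for Spred1 and 0.036 for Pde1c. With no filter, it was -0.017 for Rgs6. With the replicate block, it was -0.16 for Rgs6, -0.0052 for Cacnb2 and 0.0028 for Mt1. Without nuclei holding 3 or more UMIs of other types' markers, it was 0.20 for Mylk, -0.016 for Nptx2, -0.22 for Pde4d, 0.035 for Hspa4 and -0.035 for Kcnb2. With RLE scaling, it was 0.0025 for Pde1c. With DESeq2, it was 0.0032 for Pde1c. Without doublets, it was -0.013 for Clock. With single libraries left out, it ranged from -0.36 to 0.22 for Cacnb2, -0.051 to 0.17 for Canx, -0.22 to 0.33 for Chrm2, -0.39 to 0.036 for Chrm3, -0.079 to 0.13 for Clock, -0.10 to 0.37 for Dgki, -0.36 to 0.14 for Dusp16, -0.076 to 0.33 for Grk4, -0.23 to 0.14 for Hspa4, -0.019 to 0.29 for Kcnb2, -0.39 to 0.21 for Mt1, -0.16 to 0.24 for Myl9, -0.069 to 0.29 for Nptx2, -0.33 to 0.018 for Nr3c2, -0.10 to 0.11 for Pde1c, -0.017 to 0.17 for Pde4d, -0.020 to 0.18 for Plcb4, -0.41 to 0.49 for Rgs6, -0.029 to 0.48 for Rgs7, -0.078 to 0.25 for Ryr3, -0.21 to 0.29 for Sh3gl2, -0.32 to 0.038 for Syt1 and -0.35 to 0.045 for Tef.

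With 34 to 310 nuclei per library, depth limited what could be seen: the median SE of the log2 fold change was 0.48 under 30 CPM and 0.20 over 300 CPM. Medians of the lists under these settings were computed after the data were seen.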

Other observations

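Genes outside the naming rule were among the 28 whose constriction effect differed between sphincter 1 and the dilator muscle, and are given here as chosen after their values were seen. Acss1, an acetyl-CoA synthetase, had a log2 fold change of 0.71 ± 0.18 SE in sphincter 1 and -0.21 ± 0.16 SE in the dilator (difference 0.86 ± 0.19 SE, adjusted p = 0.0117, joint edgeR fit). Mef2c, a muscle transcription factor, was at 33.7 CPM in untreated and 77.7 CPM in constricted sphincter 1 on average (1.36 ± 0.34 SE), with a dilator value of -1.22 ± 0.43 SE. For other genes the difference lay mainly in the dilator. Mical2, an actin-oxidizing enzyme, was at 0.28 ± 0.24 SE in sphincter 1 and 2.14 ± 0.34 SE in the dilator, and Tagln, transgelin, at -0.03 ± 0.21 SE and 0.79 ± 0.32 SE. The antisense gene 4930587E11Rik, which lies within Cntn3, was at 65.1 CPM in untreated and 155 CPM in constricted sphincter 1 (1.67 ± 0.47 SE); its reads may not be separable from those of Cntn3.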
